A study of Mus musculus with 6 samples.

Results

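Transcript levels were examined for 9 genes of the beta-adrenergic and cAMP pathway, through which fat responds to noradrenaline. The genes were taken by symbol from a table of 21456 genes measured by RNA-seq in WATs. The response to noradrenaline itself was not measured. The 9 genes encode 3 adrenergic receptors (Adrb1, Adrb3 and Adra2a), the stimulatory G protein alpha subunit (Gnas), 3 phosphodiesterases (Pde3b, Pde4b and Pde4d) and 2 subunits of protein kinase A, or PKA (Prkaca and Prkar2b). All 9 were found in the table, and all 9 passed the filter on low values that left 16157 genes for testing. The samples were 3 control mice (Ntsr2 flox/flox, numbered 3 to 5) and 3 Ntsr2 AKO mice (Adipoq-cre::Ntsr2 flox/flox, numbered 3 to 5), so the floxed receptor gene is carried by every mouse and Cre only by the AKO mice. Adipoq drives Cre in adipocytes, in both white and brown fat, and leaves Ntsr2 intact in other cells of the tissue. All of them ate chow, and their age, their sex and the depot were not given in the sources used here. Samples are called mice after the study's description. As the labels do not say whether a sample was pooled, p-values measure the spread between these samples.

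Noradrenaline from sympathetic nerves binds beta-adrenergic receptors on adipocytes, whose G protein Gs turns on adenylyl cyclase, and the cAMP that is made releases the catalytic subunits of PKA from their regulatory subunits. PKA then phosphorylates the lipid droplet coat and hormone-sensitive lipase, which starts lipolysis, and CREB, which switches on early genes such as Fos. The alpha-2 receptor opposes this through Gi, and phosphodiesterases end the signal by hydrolysing cAMP, Pde3b being the one that insulin activates in fat.

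Values are normalized counts, the reads of a gene divided by a size factor for each mouse. The recovered totals were 60405373 to 66098226 reads in control mice and 54085088 to 56268725 reads in Ntsr2 AKO mice, every control mouse having more. Ntsr2, the deleted gene, was at 83.8, 64.0 and 153 normalized counts in control mice and at 3.10, 8.29 and 0 in Ntsr2 AKO mice. The 10 adipocyte markers were present in every mouse, with sums of 2759715 to 4005425 in control and 3255057 to 3547519 in AKO mice. Of the 10, 0 had an unadjusted limma p under 0.05, against 5.27% of all genes tested that were lower and 3.08% that were higher. So few genes with 3 mice per group do not show that adipocyte content was alike. Control 5 stood apart from the other mice. Its 14 skeletal muscle markers summed to 3112339 normalized counts, against 1116 and 565 in controls 3 and 4 and 1648, 101573 and 222793 in Ntsr2 AKO mice 3, 4 and 5. Myh1, a fast myosin heavy chain, was at 0 in control 3, control 4 and AKO 3. Values of the 9 genes are therefore also given without that mouse where it moved them.

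None of the 9 genes differed between genotypes after adjustment. In limma 0 of 9 had an adjusted p under 0.05, where 1 gene of 16157 did (0.00619%; Egr1, an early transcription factor outside the 9, named after its values were seen). At an unadjusted p under 0.05 the 9 gave 0 calls in either direction, against 5.27% of all genes tested that were lower and 3.08% that were higher in Ntsr2 AKO mice. A single gene of the 9 was under 0.05 in 5 other settings, Pde4b with edgeR, with DESeq2, with a muscle score as covariate and without control 4, and Pde4d without control 3. DESeq2 on recovered reads called 0 of the 9, against 1.38% of the genes to which it gave an adjusted p, and edgeR called 0 of the 9. The fitted change was negative for 6 and positive for 3, with a median of -0.17 on the log2 scale, against -0.01 over all genes tested. Adra2a, Gnas and Pde4b were lower in every AKO mouse than in every control mouse, 3 of 9, against 8.16% of all genes tested. No gene of the 9 was higher in every AKO mouse, against 6.82% of all genes. In bulk tissue, fewer cells of a type and less RNA per cell cannot be told apart.

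**Figure D1:**
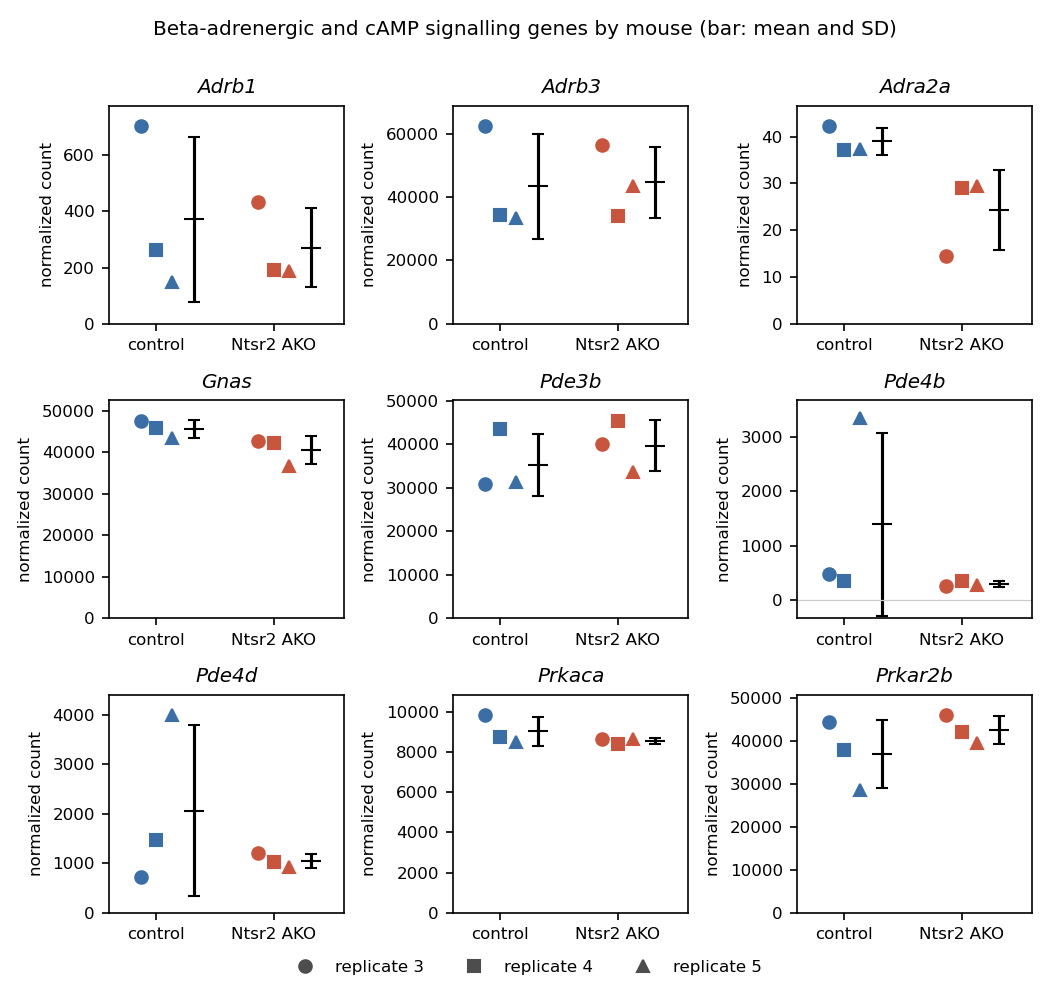
Normalized counts (vertical axis) of the 9 genes in each control (blue) and Ntsr2 AKO (red) mouse, with the replicate number as the symbol and the mean and SD as a bar; axes start at 0 except for Pde4b, whose SD bar runs below it. Control 5 is far above the other mice for Pde4b (3341) and Pde4d (4003), and control 3 is the highest for Adrb1 (706).

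Among the receptors, Adrb3 encodes the beta-3 receptor, the main beta-adrenergic receptor of mouse adipocytes. It was at 62535, 34418 and 33305 normalized counts in control mice and at 56284, 33939 and 43518 in Ntsr2 AKO mice. The groups overlapped throughout, with the highest mouse of each group being number 3. Means were 43419.6 ± 16564 in control and 44580.2 ± 11210.4 in AKO mice (SD, n = 3 each). The fitted log2 change was 0.07 (95% interval -0.65 to 0.79, limma adjusted p = 0.962), and its sign turned to -0.09 without control 5.

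Adrb1, the beta-1 receptor, which noradrenaline also activates, was at 706, 263 and 150 normalized counts in control mice and at 434, 190 and 188 in Ntsr2 AKO mice. Here too mouse 3 was the highest of each group, and the AKO values lay within the control range. The control mean of 373 ± 294 and the AKO mean of 270.5 ± 141 (SD, n = 3 each) gave a log2 change of -0.28 (95% interval -1.73 to 1.17, limma adjusted p = 0.916). The direction rested on control 3, as the change was 0.33 without that mouse, and -0.79 without control 5. Control 3 also held the most lymphocyte markers (sum 1159, against 107 to 291 in the other mice) and mammary epithelium markers (256, against 34.2 to 45.4), whose part in Adrb1 was not tested. Within each mouse, the normalized count of Adrb3 was 88.6 to 231 times that of Adrb1. The log2 ratio was 0.35 higher in AKO mice (7.09 ± 0.66 against 7.45 ± 0.41, SD, n = 3 each, two-sided exact permutation p = 0.5). The groups overlapped, and with 3 against 3 mice this test cannot give a p below 0.1. The difference in log2 ratio was 0.70 without control 5 and 0.04 without control 3.

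Adra2a, the Gi-coupled alpha-2A receptor that restrains cAMP, had the lowest counts of the 9. It was at 42.3, 37.1 and 37.4 normalized counts in control mice and at 14.5, 29.0 and 29.3 in Ntsr2 AKO mice. Every AKO mouse was below every control mouse, AKO 3 by the widest gap. The means of 39.0 ± 2.92 and 24.3 ± 8.51 (SD, n = 3 each) gave a log2 change of -0.72 (SE 0.46, 95% interval -1.82 to 0.37, limma adjusted p = 0.690), which was -0.75 without control 5. Without AKO 3 it was -0.40, so that mouse carries much of the size. At these counts the sampling of reads adds to the spread between mice. The ratio of Adrb3 to Adra2a, a measure of activating over restraining receptor transcript, was 1477, 927 and 890 in control mice and 3895, 1169 and 1483 in AKO mice. These values overlapped, and the log2 ratio differed by 0.80 (10.02 ± 0.41 against 10.82 ± 0.89, SD, n = 3 each, exact permutation p = 0.3). Without AKO 3 the difference was 0.29.

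Gnas, which encodes the Gs alpha subunit that couples these beta receptors to adenylyl cyclase, was at 47611, 45745 and 43345 normalized counts in control mice and at 42703, 42185 and 36726 in Ntsr2 AKO mice. Every AKO mouse was below every control mouse, although AKO 3 and control 5 differed by little. The means of 45567 ± 2138 and 40538 ± 3311 (SD, n = 3 each) gave a log2 change of -0.17 (SE 0.14, 95% interval -0.50 to 0.15, limma adjusted p = 0.752), and -0.21 without control 5. Quantile normalization brought it to -0.09, along with a shift of the median of all genes from -0.01 to 0.05. The locus holds several promoters, and 5 other annotated genes overlap it, 2 of them on the opposite strand. Of the 5, only Gm20721 was in the table (3.68 to 11.4 normalized counts). The strandedness of counting was not given in the sources used here.

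Of the 3 phosphodiesterases, Pde3b had the highest level per kb of exon. It was at 30821, 43484 and 31409 normalized counts in control mice and at 40001, 45403 and 33626 in Ntsr2 AKO mice. The groups overlapped, control 4 being above AKO mice 3 and 5. The means were 35238 ± 7147 and 39676.5 ± 5896 (SD, n = 3 each). Its log2 change was 0.18 (SE 0.20, 95% interval -0.29 to 0.64, limma adjusted p = 0.813), and 0.11 without control 5.

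Pde4b, a cAMP-specific phosphodiesterase, showed the largest fitted change of the 9, and it came mostly from control 5. The values were 488, 357 and 3341 normalized counts in control mice and 259, 352 and 271 in Ntsr2 AKO mice. Control 5 was 6.84 times the next highest mouse, while control 4 and AKO 4 were almost level, so the absence of overlap between the groups hangs on a gap of a few counts. The means were 1395 ± 1686 and 294 ± 50.7 (SD, n = 3 each), with a log2 change of -1.52 (SE 0.79, 95% interval -3.40 to 0.37, limma adjusted p = 0.638). Without control 5 the change was -0.52 (95% interval -1.13 to 0.10, limma adjusted p = 0.741). DESeq2 on recovered reads of all mice gave -2.24 (adjusted p = 0.0949), and edgeR gave -2.22 (adjusted p = 0.608).

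Pde4d, its close relative, was at 715, 1475 and 4003 normalized counts in control mice and at 1207, 1015 and 919 in Ntsr2 AKO mice. Control 3 was the lowest of the 6 mice and control 5 was 2.71 times the next highest, so the control range enclosed every AKO mouse. The means were 2064 ± 1721 and 1047 ± 146 (SD, n = 3 each). The log2 change was -0.64 (SE 0.57, 95% interval -1.99 to 0.72, limma adjusted p = 0.778) and became 0.02 without control 5 (95% interval -0.77 to 0.80). Without control 3 it was -1.22.

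Pde4b and Pde4d were the only members of the 9 more than 2-fold higher in control 5 than in every other mouse, 2 of 9, against 3.94% of all genes tested. All 14 skeletal muscle markers had that pattern. The part of these muscle transcripts in the 2 phosphodiesterase values was not tested. Expressed as the sum of Pde4b and Pde4d over Pde3b, the ratio was 0.0390, 0.0421 and 0.234 in control mice and 0.0366, 0.0301 and 0.0354 in AKO mice. Every AKO mouse was below every control mouse. The log2 ratios of -3.78 ± 1.46 and -4.88 ± 0.15 (SD, n = 3 each) differed by -1.10, with an exact permutation p of 0.1, the smallest that 3 against 3 mice can give. Adjusted over the 4 ratios tested it was 0.2. Without control 5 the difference was -0.26.

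**Figure D2:**
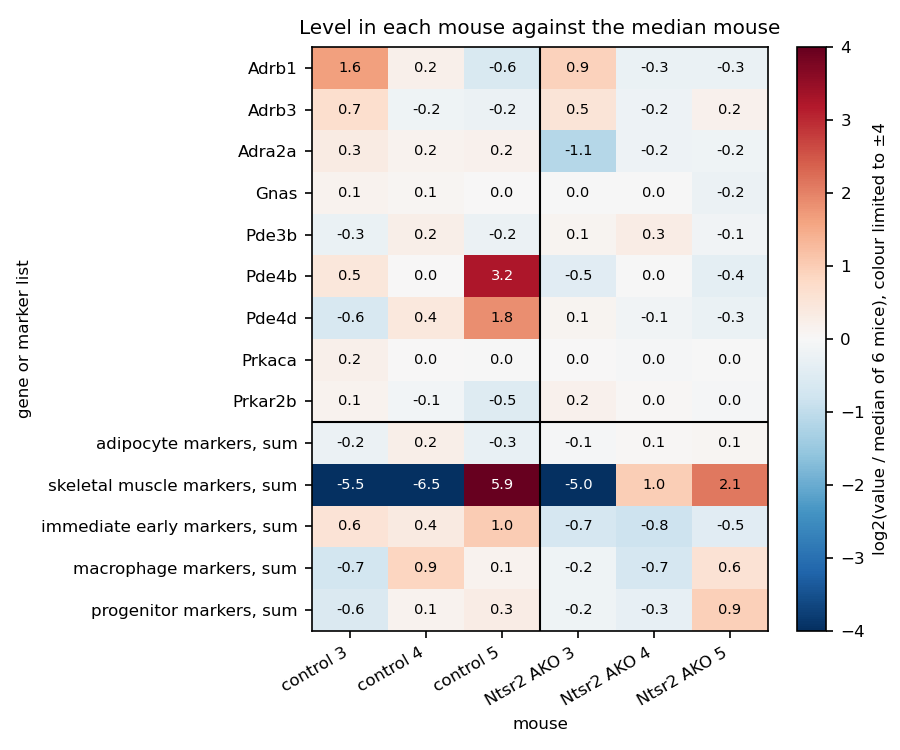
Level of each of the 9 genes and of summed marker lists (rows) in each mouse (columns), as the log2 of its value over the median of the 6 mice, with the value printed in each cell and the colour limited to 4 in either direction. Control 5 is at 3.2 for Pde4b, 1.8 for Pde4d and 5.9 for the skeletal muscle markers, while Gnas and Prkaca stay within 0.3 of their medians in every mouse.

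PKA was represented by its main catalytic subunit and by the regulatory subunit typical of fat. Prkaca, the catalytic alpha subunit, was at 9872, 8767 and 8517 normalized counts in control mice and at 8666, 8391 and 8657 in Ntsr2 AKO mice. It was the steadiest of the 9, with controls 3 and 4 above every AKO mouse and control 5 within the AKO range. The means were 9052 ± 721 and 8571 ± 157 (SD, n = 3 each). Its log2 change was -0.08 (SE 0.11, 95% interval -0.33 to 0.18, limma adjusted p = 0.859), and quantile normalization turned its sign to 0.05, while without control 5 it was -0.12.

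Prkar2b, the RII beta regulatory subunit that holds PKA inactive in adipocytes, was at 44583, 38010 and 28639 normalized counts in control mice and at 46238, 42163 and 39560.2 in Ntsr2 AKO mice. The ranges overlapped, since control 3 exceeded AKO mice 4 and 5, and control 5 was the lowest. The means were 37077 ± 8013 and 42654 ± 3366 (SD, n = 3 each). The log2 change was 0.22 (SE 0.19, 95% interval -0.24 to 0.68, limma adjusted p = 0.771) and was 0.05 without control 5. Taken within each mouse against Prkaca, Prkar2b was 4.52, 4.34 and 3.36 times as high in control mice and 5.34, 5.03 and 4.57 times as high in AKO mice. These ratios did not overlap. The log2 ratio was 2.01 ± 0.23 in control and 2.31 ± 0.11 in AKO mice (SD, n = 3 each), a difference of 0.30 with an exact permutation p of 0.1 and 0.2 after adjustment over the 4 ratios, and the difference without control 5 was 0.17.

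**Figure D3:**
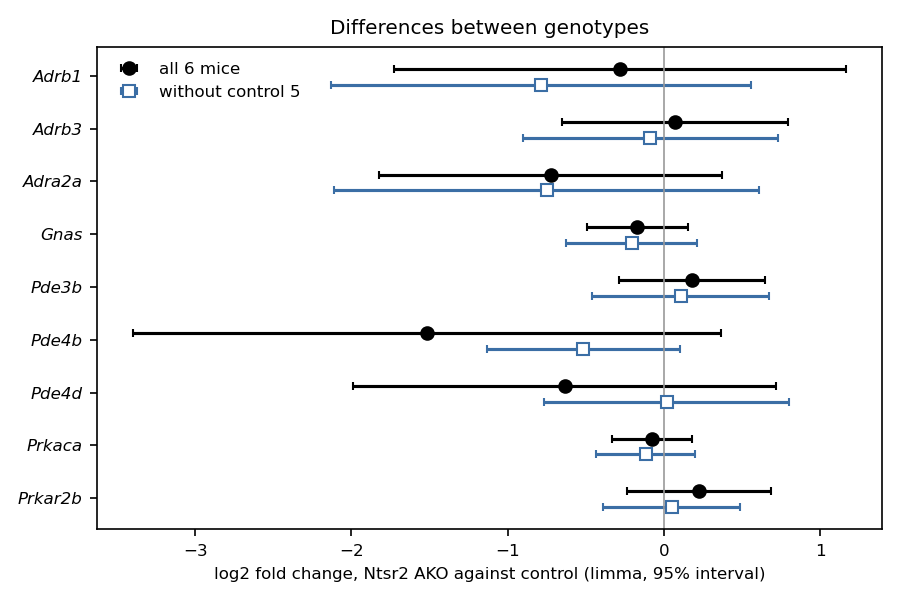
Log2 fold change of each of the 9 genes, Ntsr2 AKO against control (horizontal axis), from limma with 95% intervals, over all 6 mice (black circles) and without control 5 (open squares). Every interval covers 0, and the change of Pde4b moves from -1.52 to -0.52 and that of Pde4d from -0.64 to 0.02.

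Each gene was also set against the mean log2 value of the 10 adipocyte markers, a reference that differed by 0.05 between genotypes. As the markers are transcripts too, this reference cannot tell adipocyte content from RNA per adipocyte. On this scale Adra2a differed by -0.77, Pde4b by -1.56 and Prkar2b by 0.17 (log2 differences, AKO minus control), and for each the groups did not overlap (exact permutation p = 0.1, adjusted over the 9 genes 0.3). Without control 5 these differences were -0.65, -0.41 and 0.15, so that of Pde4b rested mostly on that mouse. Gnas, which did not overlap on its own, overlapped here with a difference of -0.22 (exact permutation p = 0.3), and -0.10 without control 5. The remaining 5 genes gave exact permutation p-values of 0.5 to 0.9. Against Adipoq alone, the p-values of Adra2a, Pde4b and Prkar2b were 0.2, 0.2 and 0.4, so the separation depends on the reference chosen. The share of all genes without overlap on the marker scale was not computed. On normalized counts, every AKO mouse was below every control mouse for 8.16% of all genes tested and above for 6.82%.

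Levels between genes were compared as normalized counts per kb of merged exons. Adrb3 and Prkar2b led with medians over the 6 mice of 11543 and 11189 per kb, and their ranges overlapped. Next came Pde3b (4039), Gnas (3846) and Prkaca (3481), whose neighbouring ranges overlapped. Pde4d (92.5), Adrb1 (66.9) and Pde4b (33.6) formed a lower tier with overlapping neighbours, and Adra2a (6.88) was last. The ranges of neighbours were separate only between Prkar2b and Pde3b, between Prkaca and Pde4d, and between Pde4b and Adra2a, and there the order held in all 6 mice. The widest spread over mice was that of Pde4b, 12.9-fold from lowest to highest, and the narrowest was that of Prkaca at 1.18-fold. Without control 5 Pde4b spread 1.88-fold and Adrb1, at 3.75-fold, was the widest.

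The genes differ widely in size. On GRCm38, the assembly that mm10 names, Pde4d spans 1504 kb of chromosome 13 (108449948 to 109953461), and 5 other annotated genes lie within or across it, Rps3a3 among them. Pde4b spans 520 kb of chromosome 4 (102087543 to 102607259) and Adra2a only 4.83 kb of chromosome 19 (54044151 to 54048982). Adrb3 lies on chromosome 8 (27225776 to 27250616) with 1 gene on the opposite strand across it. How reads were shared between overlapping genes was not given in the sources used here.

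CREB binds the cAMP response element TGACGTCA, whose core TGACG reads CGTCA on the opposite strand. Both were searched on both strands in RefSeq promoter sequences of GRCm38.p6, 250 bases before to 50 after each start. The full element occurred in 1.79% and the core in 20.8% of 32851 promoters. Of the 9 genes, 7 had 15 promoters in the set (Adrb3 and Pde3b had no entry), of which 0 held the full element and 7 held the core, from Adrb1, Adra2a, Gnas, Pde4b and Prkaca. Each match is a stretch of letters and is not a measured binding site. The windows below, upstream of a start and on the plus strand, show the core in capitals for a receptor and for PKA, beside the cores of Fos, a CREB target and the gene of the wider pathway with the smallest p in these data. Counted from the start, the cores begin at -90 in Adrb1, -120 in Prkaca, and -129 and -66 in Fos. Prkaca has another core at -6, whose window crosses the start and is not shown.
Adrb1, chr19:56722007-56722051: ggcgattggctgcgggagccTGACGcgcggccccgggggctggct
Prkaca, chr8:83972838-83972882: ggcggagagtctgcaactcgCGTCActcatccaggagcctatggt
Fos, chr12:85473741-85473785: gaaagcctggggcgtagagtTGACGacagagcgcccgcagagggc
Fos, chr12:85473804-85473848: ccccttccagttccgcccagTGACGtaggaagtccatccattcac

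The wider pathway was followed with a list of 118 other genes in 13 roles, from ligand clearance to cAMP-induced transcripts, of which 116 were in the table and 114 were tested. In limma 0 of 114 passed the adjusted threshold. Below an unadjusted p of 0.05 were 6 lower and 4 higher genes in Ntsr2 AKO mice, close to the shares of all genes tested (5.27% and 3.08%). DESeq2 called 4 of them after adjustment (Fos lower, and Npy1r, Adrbk2 and G0s2 higher), against 1.38% of all genes. The fitted change was negative for 75 and positive for 39, with a median of -0.09, against 8236 negative, 7921 positive and a median of -0.01 over all genes. With quantile normalization 61 of 114 were negative and the median of the list was -0.02, while that of all genes was 0.05. Without the 3 mice with muscle transcripts (control 5, AKO 4 and AKO 5) the median of the list was 0.05. That value rests on a single AKO mouse and is given without a median over all genes. Every AKO mouse was below every control mouse for 10 genes and above for 4, where 8.16% and 6.82% of all genes did so.

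Receptors and G proteins around the 9 genes gave no adjusted call in limma. Adra1a and Adra1d, alpha-1 receptors that signal through Gq, had log2 changes of 0.37 and 0.31 (limma adjusted p = 0.683 and 0.840). Gpr81, the Gi-coupled lactate receptor, was at 14976, 5369 and 5502 normalized counts in control and 17754, 10444 and 11004 in AKO mice, which overlap, with a log2 change of 0.74 (adjusted p = 0.676). Tshr, the thyrotropin receptor, which couples to Gs in fat, differed by 0.07 (adjusted p = 0.949). Npy1r, a Gi-coupled receptor for neuropeptide Y, was at 75.5, 61.9 and 71.9 normalized counts in control and 114, 220 and 206 in AKO mice. It was higher in every AKO mouse, with a log2 change of 1.30 (SE 0.34, limma adjusted p = 0.522, DESeq2 adjusted p = 0.0348). Of the 13 G protein subunits 10 had a negative change, and 6 with quantile normalization. Gnai1, a Gi alpha subunit with the most counts of that role, differed by 0.07 (adjusted p = 0.963) and the beta subunit Gnb1 by -0.10 (adjusted p = 0.844).

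Adenylyl cyclases, which make cAMP, gave 0 calls among 9 tested. Adcy5 and Adcy6, the pair with the most counts, had log2 changes of -0.14 and 0.00 (limma adjusted p = 0.929 and 0.998). Adcy2 and Adcy9 belonged to the 9 of 114 pathway genes that were more than 2-fold higher in control 5 than in every other mouse, against 3.94% of all genes. Of the 13 other phosphodiesterases Pde1a and Pde2a had the most counts and had log2 changes of 0.06 and -0.06 (adjusted p = 0.889 and 0.964). Pde7a was the single gene of that role with an unadjusted p under 0.05, at 2759, 1775 and 2400.1 normalized counts in control and 1580.3, 1481 and 1599 in AKO mice. Its groups did not overlap, and the log2 change was -0.55 (limma adjusted p = 0.546).

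For the other PKA subunits and inhibitors 6 of 7 fitted changes were negative (5 with quantile normalization or without control 5), and 4 of the 7 were lower in every AKO mouse (8.16% of all genes were). Prkar1b, an RI beta regulatory subunit, was at 251, 283 and 252 normalized counts in control mice and at 132, 96.4 and 181 in AKO mice. The groups did not overlap, and the log2 change was -0.98 (SE 0.28, limma adjusted p = 0.522). Prkar1a, the RI alpha subunit, was at 16610, 17630 and 16064 in control and 15254, 14656 and 13190 in AKO mice, also without overlap, with a log2 change of -0.22 (adjusted p = 0.634). Prkacb, the other main catalytic subunit, differed by -0.08 (adjusted p = 0.860). Among the anchoring proteins that place PKA in the cell, Akap7 was at 2206, 2109 and 1663 in control and 2899, 2923 and 2676 in AKO mice. Each AKO mouse was above each control mouse, with a log2 change of 0.52 (SE 0.14, limma adjusted p = 0.522). Akap12 and Akap13, with the most counts of that role, had log2 changes of -0.47 and -0.41 (adjusted p = 0.801 and 0.590).

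Of the genes that end receptor signalling, Adrbk2, a G protein-coupled receptor kinase that phosphorylates activated beta receptors, was at 697, 651 and 634 normalized counts in control mice and at 981, 986 and 877 in AKO mice. The groups were well apart, with a log2 change of 0.52 (SE 0.13, limma adjusted p = 0.522, DESeq2 adjusted p = 0.0328). Adrbk1, the related kinase, lay lower in every AKO mouse, with a log2 change of -0.25 (adjusted p = 0.602). Rgs2 and Arrdc3, a G protein regulator and an arrestin-like protein, had the most counts of the role and differed by 0.05 and -0.39 (adjusted p = 0.976 and 0.844). The cAMP-activated exchange factor Rapgef3 (Epac1) was at 4286, 4051 and 4000.2 in control and 4371, 3455 and 1415 in AKO mice, with a log2 change of -0.57 (adjusted p = 0.711), while Rapgef2 differed by 0.08 (adjusted p = 0.939).

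**Figure D4:**
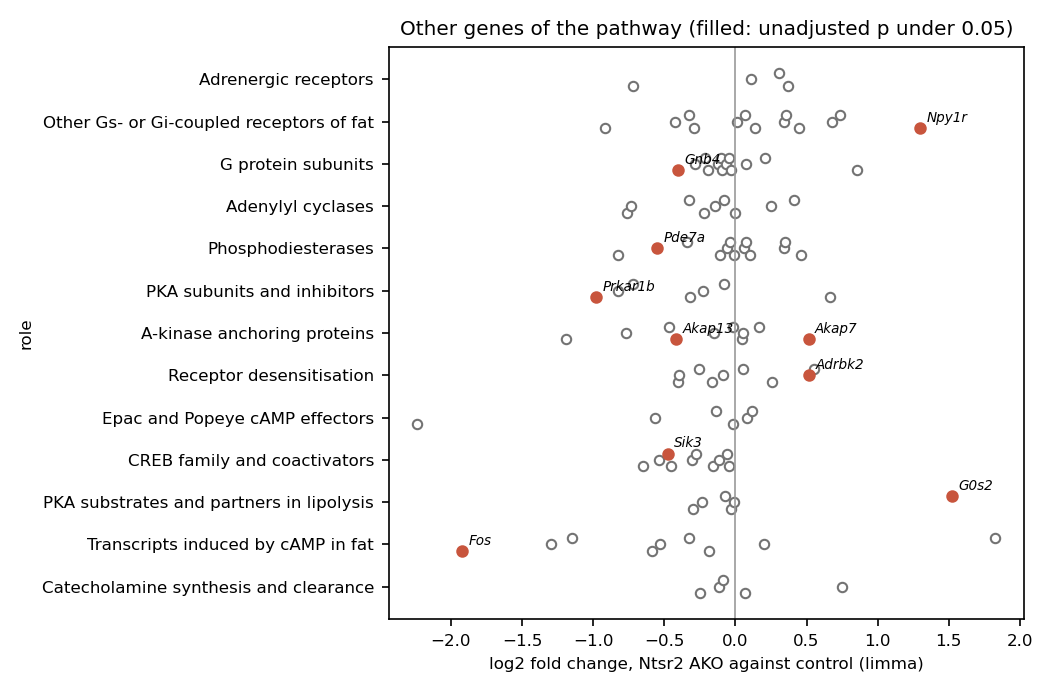
Log2 fold change, Ntsr2 AKO against control, of the 114 other pathway genes tested (horizontal axis, limma), by role (vertical axis), with genes of an unadjusted p under 0.05 filled and named. The 10 filled genes are 6 lower and 4 higher, Fos is at -1.92, and all 10 genes of the CREB family and its coactivators lie left of 0, against 8 with quantile normalization.

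Downstream of PKA, all 10 genes of the CREB family, its coactivators and their kinases had negative changes, of which 1 had an unadjusted p under 0.05. Over all genes tested, 8236 of 16157 had a negative change and 5.27% were lower at that p, so 1 of 10 is near that share. With quantile normalization 8 of the 10 were negative, and without control 5 also 8. The gene under 0.05 was Sik3, a salt-inducible kinase that PKA restrains, at 4197, 4002 and 4536 normalized counts in control and 3554, 3013 and 2644 in AKO mice. Its groups did not overlap and its log2 change was -0.48 (SE 0.14, limma adjusted p = 0.523). Sik2, the kinase of the family with the most counts, differed by -0.16 (adjusted p = 0.882). Of the PKA targets and partners in lipolysis, Lipe (hormone-sensitive lipase) was at a log2 change of -0.01 (adjusted p = 0.996) and Pnpla2 (adipose triglyceride lipase) at -0.23 (adjusted p = 0.840). G0s2, an inhibitor of Pnpla2, was at 5077, 8994 and 4653 in control and 8452, 23772 and 25055 in AKO mice, with control 4 above AKO 3 and a log2 change of 1.52 (limma adjusted p = 0.523, DESeq2 adjusted p = 0.0193).

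Fos, an early target of CREB and of other pathways, was the pathway gene with the smallest p. It was at 546, 527 and 575 normalized counts in control mice and at 165, 114 and 160 in Ntsr2 AKO mice, a separation with no mouse in between. The log2 change was -1.92 (SE 0.21, limma adjusted p = 0.160, DESeq2 adjusted p = 1.24e-12). Of the 8 other genes of an immediate early list, 8 had a negative change and 6 an unadjusted limma p under 0.05, Jun and Nr4a1 being the exceptions. Over all genes tested, 8236 of 16157 had a negative change, and 5.27% were lower at an unadjusted limma p under 0.05. The list was chosen with earlier results known, and it holds Egr1, the gene that limma called over all genes. Without Fos the list summed to 11539 to 18529.5 normalized counts in control and 5177 to 6702 in AKO mice. These genes also answer to signals other than cAMP, and their part in the value of Fos was not tested. Per1 and Irs2, cAMP-induced transcripts with the most counts in that role, had log2 changes of -0.33 and -0.59 (adjusted p = 0.811 and 0.814). Among genes of catecholamine synthesis and clearance, Maob, a monoamine oxidase, had a log2 change of 0.07 (adjusted p = 0.893). The synthesis genes Th and Dbh were not in the table, so the source of the signal was not covered.

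The pathway genes with the smallest p kept their direction without control 5, with log2 changes of -1.89 for Fos, 0.49 for Adrbk2, 1.32 for Npy1r, 0.39 for Akap7 and -1.01 for Prkar1b. With controls 3 and 4 and AKO 3 alone, the mice nearly free of skeletal muscle transcripts, Fos was at -1.69, Npy1r at 0.72, G0s2 at 0.32 and Sik3 at -0.21, with a single AKO mouse behind each value. G0s2 was highest in AKO mice 4 and 5, which held muscle transcripts, and lowest in control 5, which held the most. The part of muscle transcripts in the G0s2 values was not tested. Omission of control 5 turned the sign for Gnai1 (-0.11), Tshr (-0.10) and Rgs2 (-0.08). It moved Adcy5 to -0.34, Pde2a to -0.25, Gnb1 to -0.20, Lipe to -0.17, Pnpla2 to -0.42, Akap12 to -0.79 and Per1 to -0.18.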

How the data were processed

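RNA-seq of WATs from 3 control and 3 Ntsr2 AKO mice was analysed. The authors trimmed reads with Trimmomatic, aligned them with Hisat2, quantified them with StringTie and tested them with DESeq2. The labels name mm10, and tool versions and strandedness were not given in the sources used here. What they deposited is a signal (normalized counts, that is, each gene's reads over a size factor per mouse). Division by the step of the low values gave whole reads for 100% of values (tolerance 0.001), and these reads were used for edgeR and DESeq2 only. StringTie derives counts from coverage, so the totals approximate read numbers.

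Values were tested as log2(normalized count + 1), so changes of low genes are understated, for the 16157 genes with a mean of at least 10. The test was limma 3.58.1 (trend, no covariate) in R 4.3.3, with Benjamini-Hochberg adjustment at 0.05. Alternatives were edgeR 4.0.16 (quasi-likelihood), DESeq2 1.42.0 and those given in the closing section, and the omission of the 3 mice with skeletal muscle transcripts was chosen after seeing the data. The fits were tested on simulated data. No 2 libraries of the same group agreed within sampling noise. Gene positions and exon lengths are GENCODE annotation of GRCm38.

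The 9 genes and all lists were chosen with earlier results of these data known. Named pathway genes are the 2 with the highest mean count in each role, the 5 with the smallest limma p and any past the adjusted threshold. A gene that this rule names is not reported here. G0s2, Pde7a, Gnb4, Adrbk1, Adcy2 and Adcy9 were named after their values were seen. The numbers 3, 4 and 5 occur in both groups, and no source describes a pairing.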

Additional observations from a re-analysis of the deposited data

How the results depend on the processing

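The 9 fitted changes were recomputed 152 times under other settings (pseudocount 0.1 or 5, no filter, mean of at least 50, quantile normalization, no trend, edgeR, DESeq2, a muscle score covariate, the replicate block and left-out mice). They kept their direction in 144 and passed the adjusted threshold in none, Pde4b coming nearest (DESeq2 adjusted p = 0.0949). The 144 include settings that leave a fitted change as it is and alter only its p. These are no filter, the mean of at least 50, no trend and the replicate block, where the direction could not turn. The sign turned for Adrb1 without control 3 (0.33) or without the 3 mice with muscle transcripts (0.00821), for Adrb3 without control 4 (-0.06), control 5 (-0.09) or AKO 3 (-0.11), for Pde4d without control 5 (0.0180) or those 3 mice (0.23), and for Prkaca with quantile normalization (0.0472). The cause was not tested. Leaving out each mouse in turn gave -0.79 to 0.33 for Adrb1, -0.11 to 0.37 for Adrb3 and -1.22 to 0.02 for Pde4d. Adra2a falls below a mean of 50 and has no value there. Over all genes, 0 were called without a filter, without the trend, with edgeR, with the muscle covariate, without the 3 mice and on leaving out any mouse (0 to 0), and 219 with DESeq2, which called 4 of the pathway list. With the muscle covariate Pde4b was at -1.64 (limma adjusted p = 0.507).

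With the replicate block 0 genes were called. The fitted change of Pde4b was -1.52 there too (limma adjusted p = 0.629), as a block with 1 mouse of each group leaves fitted changes as they are. Deviations of same-numbered mice correlated at 0.45, -0.24 and 0.41, which with 3 mice per group neither shows nor excludes a pairing. The numbers were not taken as pairs because no source describes a pairing. Counting error weighs most on Adra2a, which had 14.5 to 42.3 normalized counts per mouse.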
